A study of Homo sapiens with 6 samples.

Results

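The genes described here are 41 components and regulators of DNA replication, most of them known targets of E2F transcription factors. They were chosen as a list of symbols, with earlier results of these data known. Of the 41, 40 were matched by symbol in the deposited count table, and all 40 passed the filter on low counts among 22331 tested genes. UHRF1, a factor of maintenance DNA methylation, was not matched and has no value here. The members fall into 9 roles, from the E2F factors that switch the genes on or off to the chromatin assembly factor that works behind the fork.

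Cells license replication origins in G1 by loading the MCM2-7 helicase with ORC, CDC6 and CDT1, and fire them in S phase when kinases let CDC45 and the GINS complex join the helicase. The clamp PCNA then tethers polymerases to DNA, and ribonucleotide reductase supplies the deoxynucleotides. E2F1, E2F2 and E2F3 activate most of these genes at the G1/S boundary when the retinoblastoma protein releases them, and E2F7 and E2F8 repress them again later in S phase. In proliferating lines such as HEK293 the program runs in every division.

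HEK293 is a human line derived from embryonic kidney and transformed with adenovirus DNA. The cells were transfected by Lipofectamine RNAiMAX with an siRNA against circRAB3IP (siRAB3IP, 2 libraries), an siRNA against circCAMSAP1 (siCAMSAP1, 2 libraries) or an NTC control, which the labels spell out as no template control (2 libraries), and lysed 48 hours after transfection. Both targets are circular RNAs made from the genes RAB3IP and CAMSAP1, and poly(A) RNA was read, so neither circular RNA was measured. Whether 1 group's libraries are separate cultures is not stated, and the spread that the p-values rest on may be technical.

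The groups follow the names in the authors' deposited comparison tables. In 4 of 6 libraries that name differs from the title of the sample record, and in knockdown records the genotype field names the other circular RNA than the title does. When the libraries were grouped by record title instead, edgeR called 0 members in each of the 3 comparisons, with 0 members at an unadjusted p under 0.05, so every difference below rests on the table names. Assigned fragments numbered 37379217 to 39637733 per library, so that 3 counts equalled 0.0757 to 0.0803 CPM (fragments of a gene scaled to library size). Of the line's markers, VIM (173 to 326 CPM), LIN28B (80.2 to 100.2 CPM), CDH2 and SOX2 were present, whereas PAX2 and NEFM, also listed as HEK293 markers, stayed below 0.34 CPM. The host mRNA RAB3IP had 68.1 and 66.7 CPM in siRAB3IP libraries, against 57.5 and 62.5 CPM in control libraries, and CAMSAP1 had 139 and 138 CPM in siCAMSAP1 libraries, against 138 and 136 CPM in control libraries. These linear transcripts do not check the knockdown of the circles.

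The promoters of the members are shown first, because an E2F word close to the start site is what many of them share. The members were listed partly as E2F targets, so a high share of E2F words is no independent result. The promoters they are set against below were not matched to them in base composition. RefSeq promoters (build GRCh38.p14, 250 bases before to 50 after the start) were on hand for 37 of the 41 members. The words TTTCCCGC, TTTCGCGC, TTTGCCGC and TTTGGCGC were searched on both strands. At least 1 of them stood in 21 of 37 member promoters (56.8%), against 908 of 27305 promoters in the whole table (3.33%). Below, each stretch runs 5′ to 3′ on the gene's own strand with the E2F words in capitals. The first 6 belong to members whose level changed, and MCM2 and PCNA are members that were not called in any comparison.

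E2F1 (chr20:33686356-33686455, minus strand): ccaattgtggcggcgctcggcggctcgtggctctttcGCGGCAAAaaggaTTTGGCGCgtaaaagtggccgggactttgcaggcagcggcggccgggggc
CDC25A (chr3:48188388-48188487, minus strand): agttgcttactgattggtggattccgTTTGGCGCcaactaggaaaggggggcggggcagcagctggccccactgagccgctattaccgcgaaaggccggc
GINS1 (chr20:25407603-25407702, plus strand): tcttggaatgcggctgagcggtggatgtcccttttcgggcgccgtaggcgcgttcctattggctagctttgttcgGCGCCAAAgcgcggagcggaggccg
GINS3 (chr16:58392401-58392500, plus strand): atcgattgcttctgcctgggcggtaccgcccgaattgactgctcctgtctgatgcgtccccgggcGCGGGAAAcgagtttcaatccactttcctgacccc
DTL (chr1:212035678-212035777, plus strand): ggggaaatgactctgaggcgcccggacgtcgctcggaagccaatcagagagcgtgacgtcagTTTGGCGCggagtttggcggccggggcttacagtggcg
LIG1 (chr19:48170385-48170484, minus strand): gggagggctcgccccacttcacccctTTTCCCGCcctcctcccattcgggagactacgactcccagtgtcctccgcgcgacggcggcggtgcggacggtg
MCM2 (chr3:127598341-127598440, plus strand): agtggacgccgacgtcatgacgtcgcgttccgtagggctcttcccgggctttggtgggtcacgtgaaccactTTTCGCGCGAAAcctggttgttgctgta
PCNA (chr20:5126593-5126692, minus strand): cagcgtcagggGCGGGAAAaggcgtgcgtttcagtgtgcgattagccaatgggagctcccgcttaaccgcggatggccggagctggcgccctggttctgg

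The LIG1 stretch covers bases -140 to -41 from the start site and the other 7 cover -70 to 30. E2F1 held 2 separate words 33 and 20 bases before its start, and MCM2 held 2 that overlap as 1 palindrome just after it. Across all members 22 of 28 words began no more than 100 bases before the start or after it. Of the 9 members called in at least 1 comparison, 6 held a word, against 15 of the other 28 with a promoter. RRM2, TK1 and E2F7, which were called, held none of these words in this window. A match is a description of letters and does not show that a factor binds there. The CCAAT word stood in 64.9% of member promoters and 35.7% of all promoters, and the GC box GGGCGG in 75.7% and 44.6%. CHR words of late cell cycle genes (TTTGAA and TTCGAA) stood in 8.11% of member promoters and 16.6% of all promoters.

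**Figure D1:**
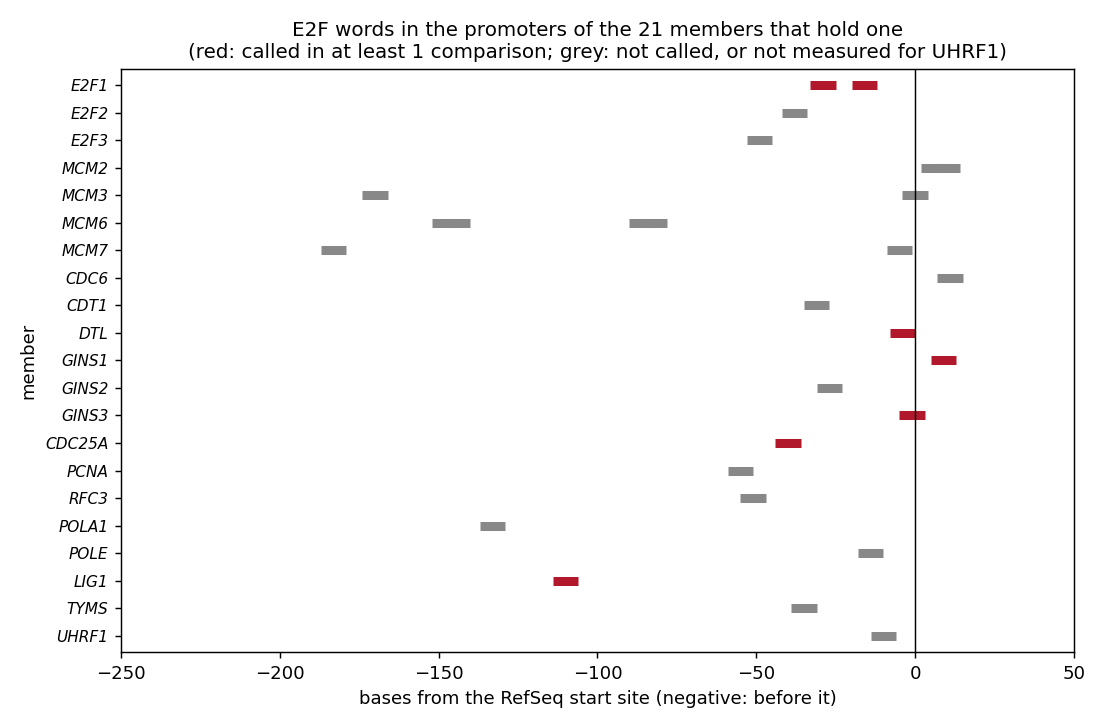
Position of each E2F word (bars) in bases from the RefSeq start site (x axis) for the 21 members that hold one (y axis). Most bars lie within 100 bases before the start, in members that were called in a comparison (red) and in members that were not (grey).

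Per unit of gene length the members spanned more than an order of magnitude in control cells, and PCNA was the highest in all 3 groups. In TPM, a scale that corrects for gene length, PCNA was the most abundant member at 330 ± 2.45 TPM in control (SD, n = 2) and GINS3 the least at 10.2 ± 1.29 TPM, with a median of 40.7 TPM over the 40. PCNA was followed by MCM7 (171 TPM), the nucleotide reductase subunit RRM1 (157 TPM), MCM3 (153 TPM) and the flap endonuclease FEN1 (136 TPM). RRM1 and MCM3 overlapped in control, as did TK1 and POLA1, and from MCM5 to GINS2 each neighbour overlapped the next. The same held from POLD1 to PRIM1, from GINS1 to MCM10, for E2F3 and CHAF1B, and from POLE to GINS3. GINS3 thus overlapped GINS4 in control, and in siRAB3IP cells GINS4 was the lowest with 9.07 TPM. The bottom of the order held the E2F factors other than E2F1, CHAF1B, the polymerase subunit POLE and GINS4. The length of a gene counts all its annotated exonic bases, 16605 for POLE and 7338 for MCM5. The order thus depends on the annotation as well as on the RNA.

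Within roles, the most abundant member in control was E2F1 among the E2F factors (45.9 ± 0.182 TPM), CDC6 in licensing (83.9 ± 0.706 TPM), CDC45 in helicase activation (43.2 ± 2.42 TPM), POLA1 among polymerases (104 ± 11.3 TPM) and CHAF1A in chromatin assembly (43.2 ± 0.917 TPM). In siRAB3IP cells CDC25A, a phosphatase placed in this role and not part of the helicase, led helicase activation with 41.9 TPM. In siCAMSAP1 cells CDC45 led it with 39.0 TPM. The other 8 leaders were the same genes in all 3 groups. PCNA, the top member, had 343 and 340 TPM in siRAB3IP libraries, 293 and 305 TPM in siCAMSAP1 libraries and 332 and 328 TPM in control libraries. TPM values lack the scaling between libraries (TMM) that the CPM values of single members carry. In CPM so scaled, PCNA overlapped between siCAMSAP1 (312 and 309 CPM) and control (340 and 303 CPM).

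**Figure D2:**
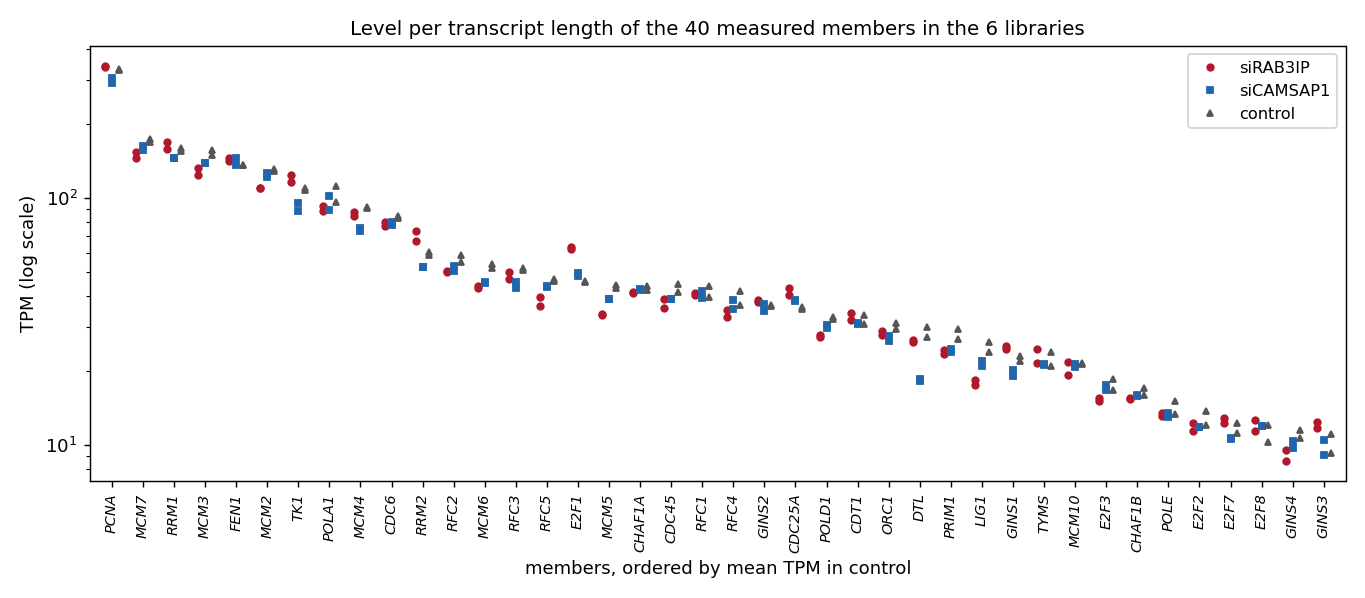
Level of the 40 measured members in TPM (y axis, log scale), ordered by their control mean (x axis), with 1 point per library for siRAB3IP, siCAMSAP1 and control. The order runs from PCNA to GINS3, and the E2F1 points of siRAB3IP stand above those of the other groups.

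With siRNA against circRAB3IP, 6 members changed, and they belonged to different steps of replication. The transcription factor E2F1, the GINS subunits GINS1 and GINS3, the phosphatase CDC25A and the reductase subunit RRM2 rose by 0.29 to 0.59 on the log2 scale, and DNA ligase I (LIG1) fell. The MCM2-7 helicase, the clamp and its loader, and the polymerases gave no call. The count of 6 of 40 (5 higher and 1 lower) stands beside 12% of all tested genes called in this comparison, 6.58% higher and 5.38% lower, and 19.2% of the genes that averaged 20 CPM or more. It is therefore a share near the background and not a result about the members as a group. Their median log2 fold change was 0.047, against -0.011 over all tested genes and 0.035 over genes of at least 20 CPM. Both siRAB3IP libraries lay above both controls in 16 members and below both in 11, where 25.9% and 27.8% of all tested genes did so. The test was edgeR's quasi-likelihood fit, with p adjusted over all 22331 genes by the Benjamini-Hochberg method, and a call is an adjusted p under 0.05.

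Levels of single members were read on the CPM scale with TMM scaling, gene by gene. E2F1, the main activating E2F of this list (hg19 chr20:32263489-32274210), had 115 and 113 CPM in siRAB3IP libraries, against 79.8 and 72.4 CPM in control libraries. Both siRAB3IP libraries lay far above both controls, a log2 fold change of 0.59 ± 0.079 (SE; adjusted p = 0.000495), and the siCAMSAP1 libraries at 87.4 and 85.4 CPM lay between. E2F1 kept its call in each of 14 alternatives other than grouping by record. The other E2F factors gave no call. The repressor E2F7 had 59.8 and 55.5 CPM in siRAB3IP libraries and 49.0 and 48.8 CPM in control libraries (log2 0.24, adjusted p = 0.0737). E2F8, its partner in repression, had 38.7 and 33.8 CPM in siRAB3IP libraries and 29.7 and 31.3 CPM in control libraries (log2 0.25, adjusted p = 0.101). E2F2 and E2F3, activators like E2F1, had log2 fold changes of 0.021 and -0.066, with 95% intervals from the fit that spanned 0.

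Helicase activation was the role with most calls, 3 of 7, though 1 of them was CDC25A, a phosphatase placed in this role and not part of the helicase. GINS1 (hg19 chr20:25388363-25433264), a subunit of the GINS tetramer that bridges CDC45 and the MCM ring, had 76.1 and 75.7 CPM in siRAB3IP libraries, against 63.6 and 60.3 CPM in control libraries. Its groups were apart (log2 0.29 ± 0.077, adjusted p = 0.0243). GINS3 (hg19 chr16:58328984-58440048), another subunit, had 46.6 and 42.9 CPM in siRAB3IP libraries, against 33.0 and 35.6 CPM in control libraries. It rose by 0.38 ± 0.090 on the log2 scale (adjusted p = 0.0147), again without overlap. The remaining subunits gave no call and lay on both sides of 0: GINS2 had a log2 fold change of 0.20 (adjusted p = 0.13) and GINS4 of -0.15 (adjusted p = 0.276). Whether subunits of this 1 complex differed from each other was not tested. The CPM ratio of GINS1 to GINS4, not corrected for length, was 2.18 and 2.03 in siRAB3IP and 1.56 and 1.53 in control libraries. It sets a called subunit over the one with the lowest fold change, so it adds nothing to the single values. GINS4 shares 23.6% of its exonic bases with other genes, and counts were made without strand, so its value is uncertain.

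CDC25A (hg19 chr3:48198636-48229892), the phosphatase that activates CDK2 at S phase entry, had 132 and 119 CPM in siRAB3IP libraries, against 103 and 91.8 CPM in control libraries. The log2 fold change was 0.36 ± 0.086 (adjusted p = 0.0152), and the lower siRAB3IP library lay above the higher control. CDC45 had 81.9 and 73.5 CPM in siRAB3IP libraries and 82.2 and 80.3 CPM in control libraries, and MCM10, which helps activate the helicase, overlapped between the groups as well.

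For the deoxynucleotide supply, all 4 members lay above control in both siRAB3IP libraries, and 1 was called. RRM2 (hg19 chr2:10262455-10271545), the small subunit of ribonucleotide reductase whose level rises in S phase, had 270 and 238 CPM in siRAB3IP libraries, against 203 and 188 CPM in control libraries. This was a log2 fold change of 0.38 ± 0.085 (adjusted p = 0.0115). RRM1, the large subunit and the most abundant member of this role, had 522 and 472 CPM in siRAB3IP libraries and 462 and 407 CPM in control libraries (log2 0.19, adjusted p = 0.18). The ratio of RRM2 to RRM1 in CPM was 0.518 and 0.504 in siRAB3IP libraries, 0.430 and 0.431 in siCAMSAP1 libraries and 0.440 and 0.461 in control libraries. That ratio sets a called gene over one not called, and it was not tested. Thymidine kinase TK1, of the salvage pathway, had 169 and 154 CPM in siRAB3IP libraries and 142 and 126 CPM in control libraries (log2 0.27, adjusted p = 0.0674). It passed with DESeq2, without a filter and without control library 1, and the authors' deposited table lists it at 0.28 with an adjusted p of 0.0159. TYMS, thymidylate synthase, had a log2 fold change of 0.18 (adjusted p = 0.247) and shares 26.2% of its exonic bases with other genes.

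LIG1 (hg19 chr19:48618702-48673860), the ligase that seals Okazaki fragments, was the member that fell. It had 84.7 and 86.4 CPM in siRAB3IP libraries, against 109 and 108 CPM in control libraries. No library of the 2 groups overlapped, and the log2 fold change was -0.34 ± 0.079 (adjusted p = 0.0143). FEN1, which cuts the flaps before LIG1 seals them, had 258 and 259 CPM in siRAB3IP libraries and 234 and 213 CPM in control libraries (log2 0.21, adjusted p = 0.0986). The CPM ratio of LIG1 to FEN1 was 0.328 and 0.334 in siRAB3IP libraries, 0.426 and 0.382 in siCAMSAP1 libraries and 0.466 and 0.506 in control libraries. This ratio sets a called gene that fell over one with a positive fold change, so it adds nothing to the single values.

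The MCM2-7 helicase, present at 1 copy of each subunit per ring, gave 0 calls among 6 subunits in edgeR. Of the 6, 1 had an unadjusted p under 0.05, and 5 had a log2 fold change below 0. Among all tested genes 11519 of 22331 lay below 0, and among those that averaged 20 CPM or more 3568 of 8243. In TPM, where the median of all tested genes was itself -0.15, 6 of 6 subunits lay below 0. MCM7, the most abundant subunit per length, had 496 and 456 CPM in siRAB3IP libraries and 514 and 478 CPM in control libraries. MCM5 was the nearest to a call, at 183 and 177 CPM in siRAB3IP libraries and 221 and 204 CPM in control libraries (log2 -0.24, 95% interval -0.41 to -0.07, adjusted p = 0.063). It passed with upper-quartile scaling and with a stricter filter, and the authors' deposited table lists it at -0.23 with an adjusted p of 0.0485. MCM4 was the subunit above 0, with 442 and 414 CPM in siRAB3IP libraries and 435 and 391 CPM in control libraries. DESeq2 called 0 of the 6.

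Licensing factors, clamp, loader, polymerases and chromatin assembly gave no call in this comparison. CDC6, which loads the helicase with ORC, had 200.3 and 187 CPM in siRAB3IP libraries and 196 and 179 CPM in control libraries. CDT1, its partner, lay above control in both siRAB3IP libraries (log2 0.18, adjusted p = 0.157), and ORC1, the origin recognition subunit, had a log2 fold change of 0.044. PCNA had 373 and 358 CPM in siRAB3IP libraries and 340 and 303 CPM in control libraries (log2 0.19, adjusted p = 0.165). The loader subunits RFC1 to RFC5 ranged from -0.15 to 0.11 and the polymerase and primase genes POLA1, POLD1, POLE and PRIM1 from -0.10 to 0.05. POLA1, the polymerase that starts each fragment with primase, had 415 and 422 CPM in siRAB3IP libraries and 424 and 447 CPM in control libraries. CHAF1A, which deposits histones behind the fork, had 132 and 127 CPM in siRAB3IP libraries and 127 and 119 CPM in control libraries.

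Apart from E2F1, every call of this comparison was lost when 1 library or another was left out. Such a fit leaves 1 library in an arm, which is assumed to vary like the other groups. Log2 fold changes over 14 alternatives other than grouping by record stayed between 0.26 and 0.33 for GINS1, 0.32 and 0.44 for GINS3, 0.28 and 0.45 for CDC25A, 0.28 and 0.47 for RRM2, and -0.36 and -0.33 for LIG1. GINS3, CDC25A, RRM2, GINS1 and LIG1 were lost without siRAB3IP library 1, which left 1 member called, and GINS1, CDC25A and RRM2 without control library 2, which left 3. Leaving out siRAB3IP library 2 ended the calls of GINS1 and LIG1, and control library 1 that of GINS3. In bulk RNA, more cells in a stage of the cycle and more RNA per cell cannot be told apart.

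**Figure D3:**
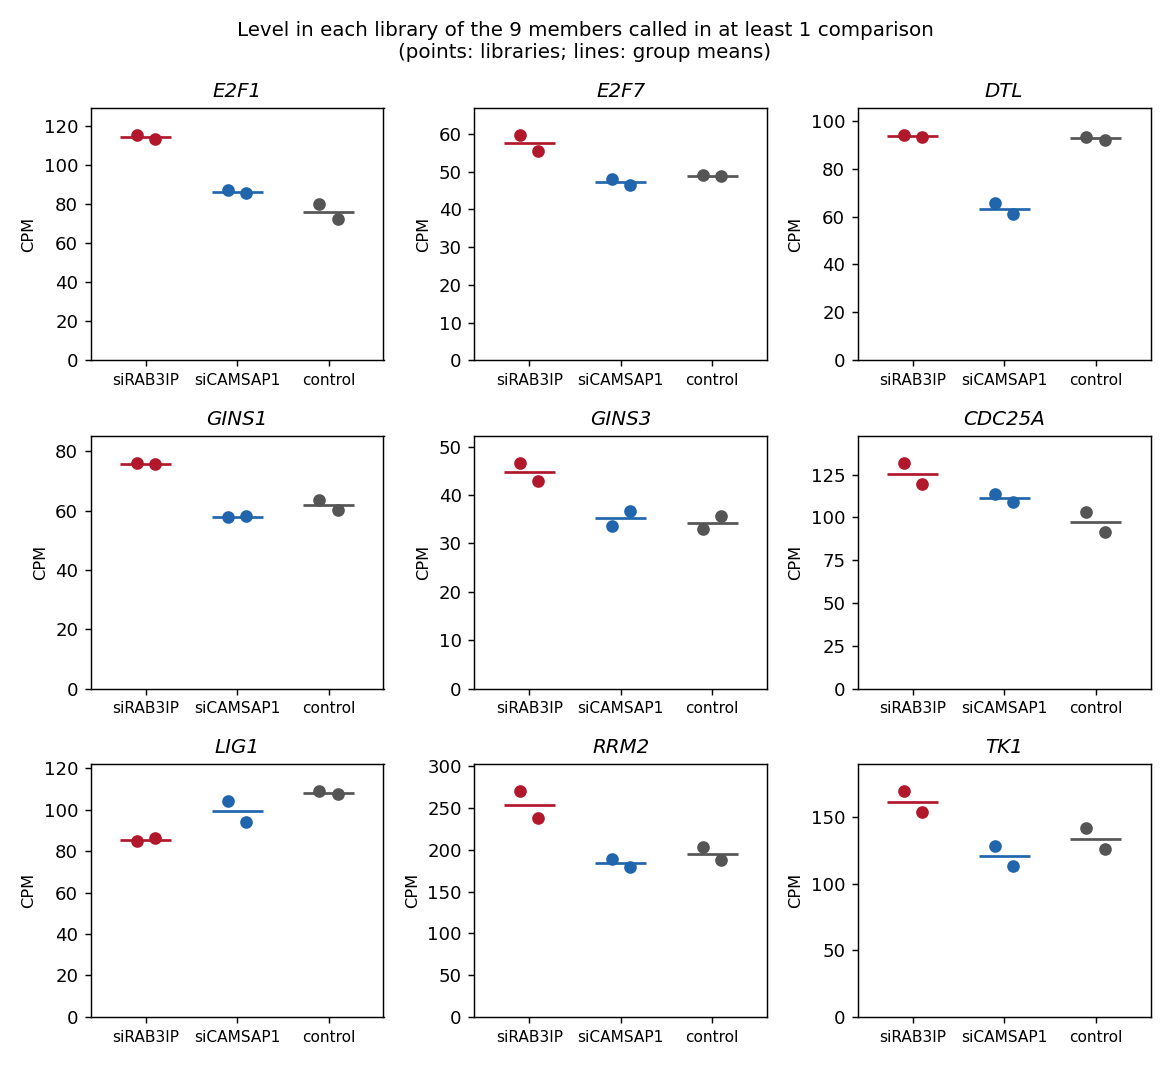
CPM (y axis, from 0) of the 9 members called in at least 1 comparison, with 1 point per library and a line at the mean of siRAB3IP, siCAMSAP1 and control. E2F1, GINS1, GINS3, CDC25A and RRM2 lie highest in siRAB3IP, LIG1 lies lowest there, and DTL lies lowest in siCAMSAP1.

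With siRNA against circCAMSAP1, DTL fell and no other member was called. DTL (hg19 chr1:212208919-212280742), also called CDT2, is the substrate receptor of the CRL4 ubiquitin ligase that destroys CDT1 at PCNA during S phase. It had 65.6 and 60.9 CPM in siCAMSAP1 libraries, against 93.1 and 92.1 CPM in control libraries. Both siCAMSAP1 libraries lay well below the controls, a fold of 0.683 and a log2 fold change of -0.55 ± 0.077 (adjusted p = 0.00448), while the siRAB3IP libraries held 94.2 and 93.2 CPM. The call held in each of 14 alternatives other than grouping by record, at an adjusted p up to 0.0445. In the authors' deposited table DTL stood at -0.56 (adjusted p = 1.26e-07). This 1 call in 40 stands beside 1.06% of all tested genes called, 0.519% higher and 0.542% lower, and 1.8% of the genes that averaged 20 CPM or more. Both siCAMSAP1 libraries lay above both controls in 6 members and below both in 11, where 20.6% and 20.9% of all tested genes did so.

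The neighbours of DTL in the pathway gave no call. CDT1, the protein it directs to destruction, had 75.2 and 70.6 CPM in siCAMSAP1 libraries and 71.5 and 70.4 CPM in control libraries (log2 0.04, 95% interval spanning 0). The ratio of DTL to CDT1 in CPM was 0.872 and 0.864 in siCAMSAP1 libraries, 1.19 and 1.14 in siRAB3IP libraries and 1.303 and 1.309 in control libraries. Here too a called gene stands over one not called, and the ratio was not tested. CDC6 and ORC1, the other licensing members, had log2 fold changes of 0.003 and -0.07. Across the 40 members the median log2 fold change was -0.023, against 0.0008 over all tested genes, and the range without DTL was -0.20 for MCM4 to 0.20 for E2F8.

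Members that rose with siRAB3IP had smaller or opposite values here. E2F1 had a log2 fold change of 0.18 against control (adjusted p = 0.371), CDC25A of 0.19 (adjusted p = 0.391), GINS3 of 0.035, RRM2 of -0.085 and GINS1 of -0.096. CDC25A had 114 and 109 CPM in siCAMSAP1 libraries, against 103 and 91.8 CPM in control libraries. Both siCAMSAP1 libraries lay above both controls for CDC25A and E2F1 and below both for GINS1, while GINS3 and RRM2 overlapped. LIG1 had 104 and 94.0 CPM in siCAMSAP1 libraries and 109 and 108 CPM in control libraries (log2 -0.13, adjusted p = 0.585). Both comparisons use the same 2 control libraries, so their values are not independent. The MCM2-7 subunits gave 0 calls in edgeR (1 at an unadjusted p under 0.05) and 0 in DESeq2. Between the knockdowns they gave 0 calls in edgeR (2 at an unadjusted p under 0.05), and MCM4 was called there with DESeq2, without a filter and without either control library (log2 0.25, adjusted p = 0.0876 in the edgeR fit).

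**Figure D4:**
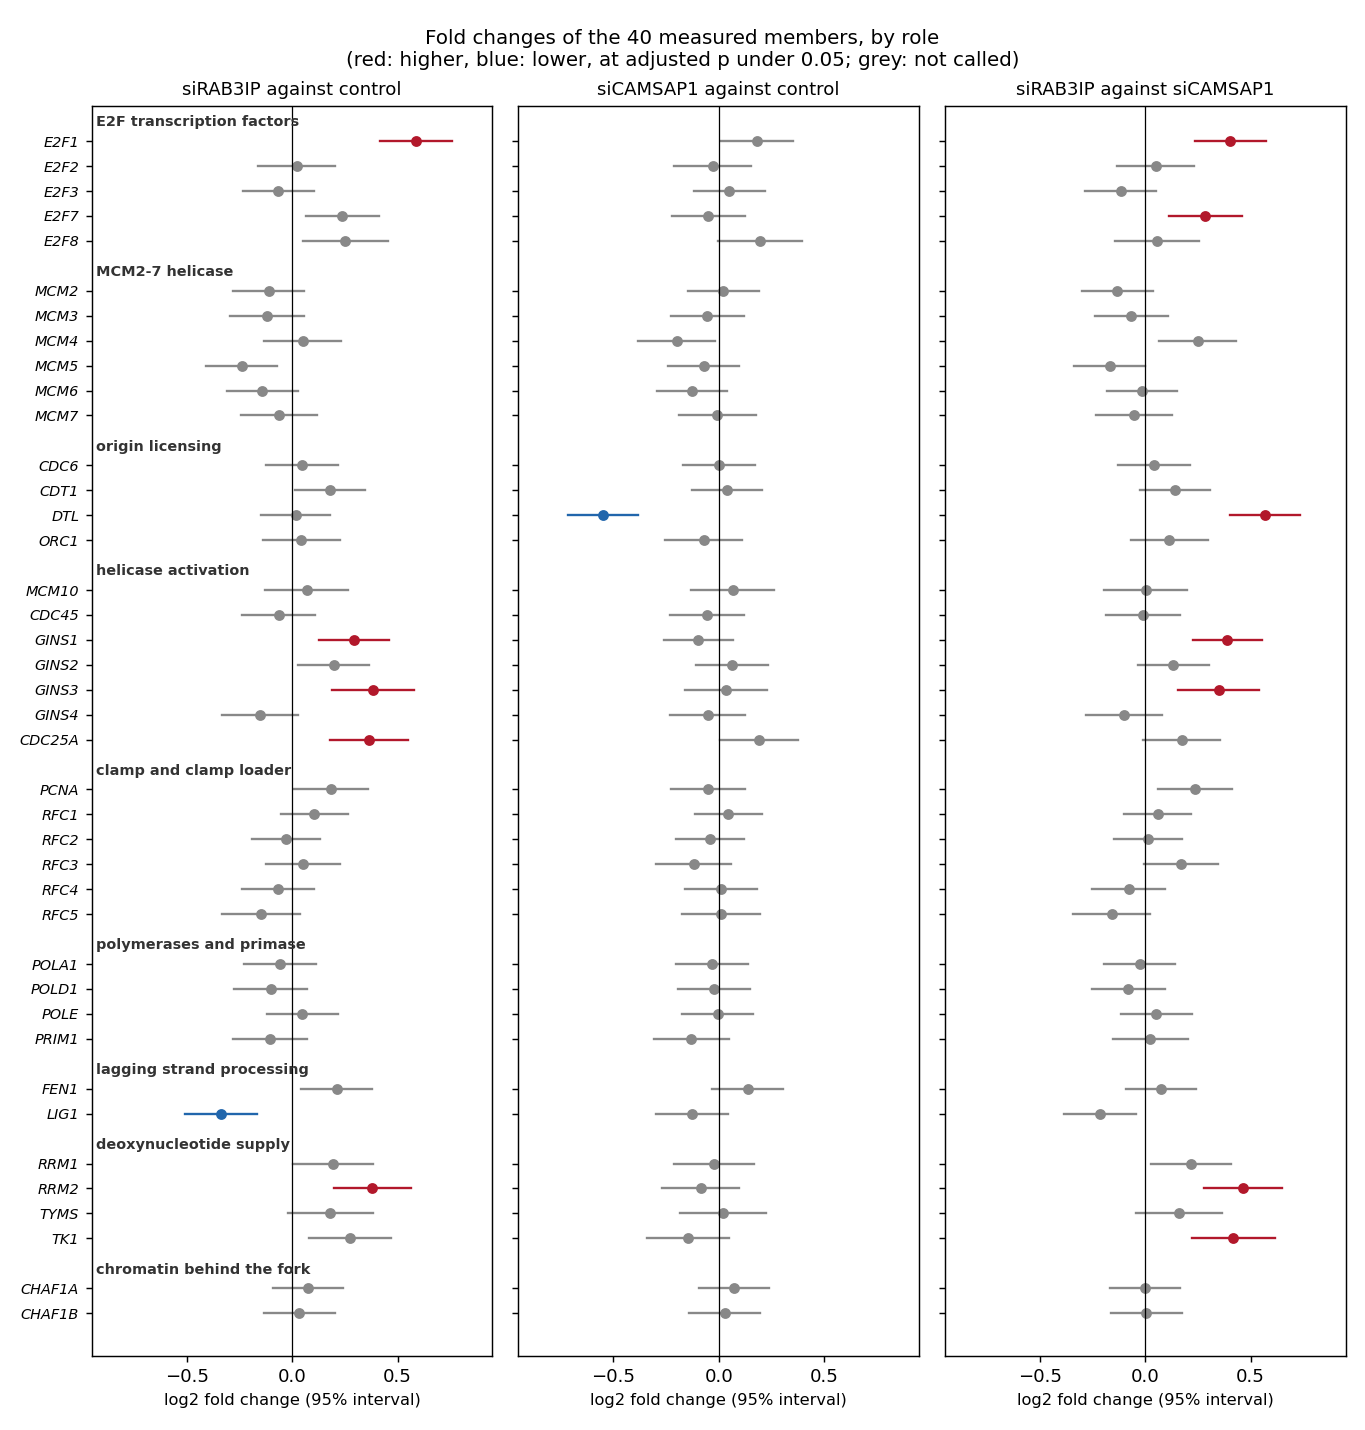
Log2 fold change with its 95% interval (x axis) of the 40 measured members (y axis, by role) in the 3 comparisons, red where called higher, blue where called lower and grey where not called. The calls scatter over 5 roles, and those of MCM2-7, clamp and loader, polymerases and chromatin assembly are grey throughout.

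Set directly against each other, the knockdowns differed in 7 members, all higher in siRAB3IP cells. This stands beside 9.3% of all tested genes called, 5.14% higher and 4.16% lower, and 15% of the genes that averaged 20 CPM or more. Both siRAB3IP libraries lay above both siCAMSAP1 libraries in 16 members and below both in 7, where 25.8% and 26.4% of all tested genes did so. DTL had the largest difference at 0.57 ± 0.077 (adjusted p = 0.000637), with 94.2 and 93.2 CPM in siRAB3IP libraries, against 65.6 and 60.9 CPM in siCAMSAP1 libraries. RRM2 followed with 270 and 238 CPM in siRAB3IP libraries, against 189 and 179 CPM in siCAMSAP1 libraries (0.46 ± 0.085, adjusted p = 0.00439). TK1 had 169 and 154 CPM in siRAB3IP libraries, against 128 and 114 CPM in siCAMSAP1 libraries (0.42 ± 0.091, adjusted p = 0.0111). Against control, the siCAMSAP1 libraries overlapped for TK1 and gave no call (log2 -0.15, adjusted p = 0.585).

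E2F1 was higher in siRAB3IP than in siCAMSAP1 libraries by 0.40 ± 0.079 (adjusted p = 0.00601), and GINS1 by 0.39 ± 0.077 (adjusted p = 0.00641), with 57.7 and 58.2 CPM in siCAMSAP1 libraries. GINS3, at 33.7 and 36.7 CPM in siCAMSAP1 libraries, differed by 0.35 ± 0.090 (adjusted p = 0.027). E2F7, at 48.1 and 46.4 CPM there, differed by 0.29 ± 0.081 (adjusted p = 0.0398). CDC25A and LIG1, called against control, did not pass between the knockdowns, with differences of 0.17 (adjusted p = 0.247) and -0.21 (adjusted p = 0.118). DTL and E2F1 kept this call in all 14 alternatives other than grouping by record. The others were lost without at least 1 siRAB3IP or siCAMSAP1 library: without siRAB3IP library 1, E2F7, GINS3, RRM2 and TK1 were lost and 3 calls stayed, and without siRAB3IP library 2, E2F7, GINS1 and GINS3 were lost and 4 stayed. E2F7 was also lost without either siCAMSAP1 library, GINS3 without siCAMSAP1 library 1 and TK1 without siCAMSAP1 library 2.

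Summed over the 40 members, neither knockdown stood apart from control in CPM. The sum was 6520 and 6150 CPM in siRAB3IP libraries, 6098 and 5886 CPM in siCAMSAP1 libraries and 6306 and 5930 CPM in control libraries, so that each knockdown overlapped control while both siRAB3IP sums lay above both siCAMSAP1 sums. Within each group library 1 was the higher for most members, 35 of 40 in siRAB3IP, 31 in siCAMSAP1 and 32 in control. In TPM the sum was 2351 and 2287 in siRAB3IP libraries, 2204 and 2242 in siCAMSAP1 libraries and 2373 and 2449 in control libraries. TPM values shifted the median of all tested genes in siRAB3IP against control to -0.15 on the log2 scale. On that scale the members' median was -0.09, and all 6 called members kept their direction. With siCAMSAP1 the TPM medians were -0.09 for all tested genes and -0.11 for the members. Both sums of each knockdown lay below both control sums in TPM and overlapped them in CPM.

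Other genes of the pathway, 133 in 7 lists with 132 tested, were called in both directions with siRAB3IP. Of these 132, 10 rose and 12 fell, 22 calls in all, beside 12% of all tested genes and 19.2% of the genes that averaged 20 CPM or more, which is again near the background. That count was 9 without siRAB3IP library 1, 5 without siRAB3IP library 2 and 12 without control library 2, and 4 genes (PCLAF, MYBL2, KIF20A and HMMR) kept the call whichever library was left out. Among 14 genes of the E2F, DP and pocket protein list, LIN54 and MYBL2, both of the complexes that control cell cycle genes with the MuvB core, rose and E2F5 fell. MYBL2, itself a known E2F target, had 393 and 405 CPM in siRAB3IP libraries, against 309 and 268 CPM in control libraries (0.47 ± 0.086, adjusted p = 0.00362). LIN54 had 61.6 and 59.3 CPM in siRAB3IP libraries, against 49.8 and 48.0 CPM in control libraries. E2F5, a factor bound by pocket proteins, had 14.1 and 12.1 CPM in siRAB3IP libraries, against 16.7 and 18.3 CPM in control libraries (-0.42, adjusted p = 0.0335), and shares 18.5% of its exonic bases with other genes.

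The cyclins E, which drive S phase entry with CDK2, went in opposite directions. CCNE2 had 25.2 and 25.9 CPM in siRAB3IP libraries, against 19.0 and 18.0 CPM in control libraries (0.47 ± 0.098, adjusted p = 0.00785), though it shares 37.1% of its exonic bases with other genes. CCNE1 had 21.6 and 15.0 CPM in siRAB3IP libraries, against 27.3 and 26.2 CPM in control libraries (-0.54 ± 0.13, adjusted p = 0.0189). The repair nuclease EXO1 rose by 0.28 (adjusted p = 0.0393), and 22 of the 26 other S phase and repair genes did not pass.

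At the fork, 3 of 24 genes rose and 1 fell. PCLAF, a PCNA-associated factor, had 67.94 and 67.95 CPM in siRAB3IP libraries, against 53.4 and 49.4 CPM in control libraries (0.40, adjusted p = 0.00606). POLE4, a small subunit of polymerase epsilon, rose by 0.47 (adjusted p = 0.026), RNASEH2C, of the enzyme that removes ribonucleotides from DNA, by 0.29 (adjusted p = 0.0479). RPA3, a subunit of the single-strand binding protein, fell by 0.29 (adjusted p = 0.0328). PCLAF and RNASEH2C share 23.5% and 30.2% of their exonic bases with other genes. Of 18 licensing and firing genes MCM8 rose by 0.28 (adjusted p = 0.0404) and MCM9, its partner in repair, fell by 0.38 (adjusted p = 0.0131). In the nucleotide list the uracil glycosylase UNG rose by 0.28 (adjusted p = 0.0265) and the p53-inducible reductase subunit RRM2B fell by 0.38 (adjusted p = 0.0203), opposite to RRM2. Of 12 chromatin assembly genes, the histone chaperone NASP fell by 0.31 (adjusted p = 0.0169).

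G2 and mitosis genes, listed because they mark the cycle stage after S phase, gave 0 calls higher and 6 lower of 25, beside 6.58% and 5.38% of all tested genes. HMMR, a spindle-associated hyaluronan receptor, had 56.4 and 47.3 CPM in siRAB3IP libraries, against 91.8 and 89.0 CPM in control libraries (-0.80, adjusted p = 0.00015). The kinesin KIF20A had 126 and 133 CPM in siRAB3IP libraries, against 174 and 180 CPM in control libraries (-0.45, adjusted p = 0.00202). CDC20, the activator of the anaphase ligase, and cyclin B1 (CCNB1) fell by 0.40 and 0.33. The list summed to 3614 and 3543 CPM in siRAB3IP libraries, 3785 and 3946 CPM in siCAMSAP1 libraries and 3927 and 3980 CPM in control libraries, so both siRAB3IP libraries lay below all others. Without siRAB3IP library 2, or without control library 1, 2 genes of the list were called lower, KIF20A and HMMR in each case; 4 were without siRAB3IP library 1. Without control library 1, BIRC5 of this list was called higher. These values moved beside those of the replication members; their part in the members' changes was not tested.

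With siCAMSAP1, edgeR called 0 of the 132 other pathway genes, beside 1.06% of all tested genes. At an unadjusted p under 0.05 there were 13, beside 2707 of all 22331 tested genes. DESeq2 called 1, the mitotic kinesin KIF23, at 0.32 (adjusted p = 0.0193). Without a filter edgeR called KIF23 as well (adjusted p = 0.0265), and without control library 1 it called BIRC5, which encodes the mitotic protein survivin. Between the knockdowns 5 of 132 were higher in siRAB3IP cells (RNASEH2C, PCLAF, LIN54, MYBL2 and CCNE2). Lower were 9 (RBL2, CCNE1, RAD54L, CCNB1, BUB1, CDC25C, KIF20A, KIF23 and HMMR). Of all tested genes 9.3% were called here, 5.14% higher and 4.16% lower. Of the genes that averaged 20 CPM or more 15% were called, so the share in these lists is again near the background. LIN54, at 61.6 and 59.3 CPM in siRAB3IP libraries, against 44.4 and 42.0 CPM in siCAMSAP1 libraries, had a difference of 0.48 ± 0.080 (adjusted p = 0.00238). CCNE1, at 21.6 and 15.0 CPM in siRAB3IP libraries, against 30.2 and 30.8 CPM in siCAMSAP1 libraries, had one of -0.73 ± 0.13 (adjusted p = 0.00422). RBL2, the pocket protein p130 that represses E2F targets in resting cells, was lower by 0.28 (adjusted p = 0.0422) and lost the call without any 1 of the siRAB3IP or siCAMSAP1 libraries. These 14 calls became 4 without siRAB3IP library 2, 6 without siCAMSAP1 library 1 and 9 without siCAMSAP1 library 2, and 26 and 23 without control library 1 and 2. LIN54, PCLAF, CCNE1 and HMMR were called whichever library was left out.

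**Figure D5:**
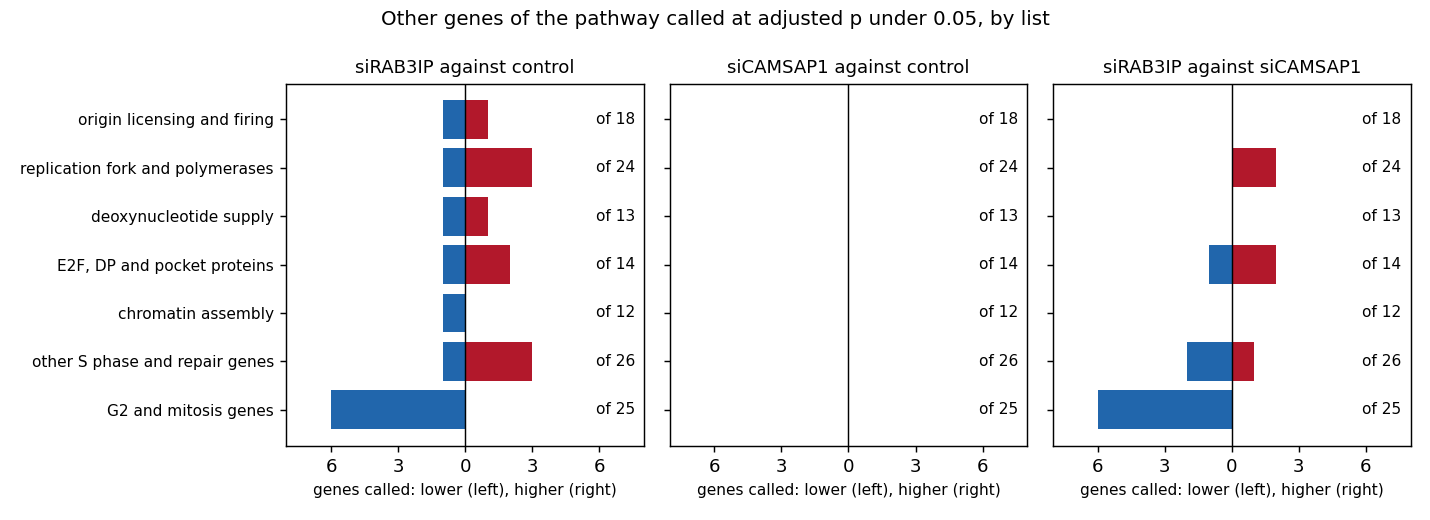
Number of other pathway genes called higher (right, red) and lower (left, blue) in each of 7 lists (y axis) and 3 comparisons, with the number tested beside each bar. In siRAB3IP against control, 6 lists have a bar of 1 to the left and the G2 and mitosis list has 6 to the left and 0 to the right.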

How the data were processed

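Poly(A) RNA libraries were made with a TruSeq RNA kit, per the labels' protocols. The authors deposited fragment counts per gene, made with featureCounts 1.6.0 on primary pairs with both ends mapped and no strand setting, per the file headers. STAR, DESeq2 and hg19 are named in the submitters' processing notes, with versions not given in the sources used here. In addition, the authors deposited normalized signal columns with log2 fold changes and adjusted p-values of the genes past their threshold. Those signal columns, each a multiple of 1 count column within 1e-09 in log2, gave the grouping.

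The count table held 63677 genes, 52526 with a symbol from GENCODE or the gene name table. A single edgeR 4.0.16 model of 3 groups (R 4.3.3, TMM, filterByExpr, quasi-likelihood test, 3 residual degrees of freedom, Benjamini-Hochberg adjustment) was fitted to 22331 genes. Robust estimation was chosen after the fit without it had been seen, to follow earlier processing; both called 6, 1 and 7 members, the same genes. The members and lists were chosen with earlier results of these data known. TPM used the deposited lengths and no TMM factor. Alternatives were other scalings and filters, DESeq2 1.42.0, a replicate block, a fit of the compared groups alone, each library left out and grouping by record. Described most fully are members called in at least 1 comparison and the most abundant member of each role. For most of the latter the siCAMSAP1 level in CPM is not given. Of each list, up to 4 called genes with the largest change are described. A called gene of the S phase and repair list is not reported here. Counts without strand make overlapping genes uncertain. Besides those named, MCM7, POLD1, FEN1, PRIM1 and RFC5 share 5.73% to 8.94% of their exonic bases with other genes. Processed pseudogenes of RRM2 held 0.25% of its CPM, those of PCNA 0.01%. The script was tested on simulated data. Libraries held 37379217 to 39637733 assigned fragments, and the level given for 3 counts covers counting error only.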

Additional observations from a re-analysis of the deposited data

How the results depend on the processing

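Members called numbered 6 in siRAB3IP against control, 1 in siCAMSAP1 against control and 7 in siRAB3IP against siCAMSAP1. The fits without a replicate block stayed within 1.5 times of these with relative log and upper-quartile scaling, no filter, a stricter filter, the compared groups alone, DESeq2 and no robust fit (added after seeing the data). Leaving out 1 library at a time gave 1 to 6 members called in siRAB3IP against control, 1 in siCAMSAP1 against control and 3 to 9 between the knockdowns. With the replicate block the counts were 15, 3 and 15, and with it 5590, 1643 and 4829 genes were called in all. The members it added were CDT1, E2F7, E2F8, FEN1, GINS2, MCM5, PCNA, RRM1 and TK1 in siRAB3IP against control, CDC25A and MCM4 in siCAMSAP1 against control, and CDC25A, LIG1, MCM4, MCM5, PCNA, RFC3, RFC5 and RRM1 between the knockdowns. Other pathway genes called in siCAMSAP1 against control numbered 0 in the fit that differs only by lacking the block, and 11 with it. Labels do not say that replicate numbers pair the libraries, and each group has 2. Differences between library 1 and library 2 correlated between groups across 11784 genes at r = 0.45, 0.53 and 0.45, a hint from the data and not the design.

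Grouping by the sample records called 0 members in each comparison and turned the sign of 12 values. Against control, siRAB3IP values became -0.29 for E2F1, -0.24 for GINS1, -0.20 for GINS3, -0.20 for CDC25A, 0.13 for LIG1 and -0.33 for RRM2. Between the knockdowns they became -0.31 for E2F1, -0.073 for E2F7, -0.18 for GINS1, -0.20 for GINS3, -0.15 for RRM2 and -0.073 for TK1. Other pathway genes called in siRAB3IP against control numbered 22, against 5 without siRAB3IP library 2, 9 without siRAB3IP library 1, 12 without control library 2 and 46 with the replicate block. With 2 libraries a group, the 95% intervals of the members in siRAB3IP against control reached 0.16 to 0.20 on either side in log2. This limits the size of change that could be told from 0. A call asked for more, since the intervals are not adjusted for the number of genes tested. TK1 at 0.27, E2F8 at 0.25 and MCM5 at -0.24 were not called.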
